A study of Drosophila melanogaster with 4 samples.

Results

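Broad is the product of the Broad-Complex gene br, an X-linked gene that encodes a family of transcription factors. Its isoforms share a BTB domain, through which such proteins bind one another, and differ in the zinc fingers that recognise DNA. Broad is an early responder to the moulting hormone ecdysone and is best known for directing the switch from larva to pupa. A sequence-specific factor is generally thought to contact short DNA motifs, so a single contact usually gives a short peak in ChIP-seq, in which cross-linked DNA is recovered with an antibody and sequenced. A long unbroken stretch of signal can cover several contacts, but a peak list alone does not show how many.

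The regions described here are the widest stretches of Broad signal on the main part of the autosome arms of Drosophila melanogaster embryos. They were selected on their measured width: a peak counted as wide if it lay on arm 2L, 2R, 3L or 3R and covered 1500 bp or more. Peaks near the centromeres were left out, that is those centred at 20 Mb or beyond on 2L, below 2 Mb on 2R, at 22 Mb or beyond on 3L and below 2 Mb on 3R. This left 331 wide peaks among 3758 peaks of these stretches, or 8.81% (95% Wilson interval 7.94 to 9.76%), out of 5171 peaks in the whole list. The other 3427 peaks of the same stretches serve as the background and are called narrower peaks.

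The series comprised 2 ChIP libraries, made with a rabbit polyclonal antibody against the part that Broad isoforms have in common, and 2 Input libraries of genomic DNA. All 4 samples, of the strain Y cn bw sp and of unknown sex, were embryos labelled as aged 0 to 8 h, although the protocol text speaks of a later window of egg laying. Both groups shared one genotype. On the first chromosome it carried y[1] with oc[R3.2]. On the second it carried Gr22b[1] and Gr22d[1], then cn[1], CG33964[R4.2], bw[1] and also sp[1]. On the third it carried LysC[1] and lab[R4.2], with MstProx[1], GstD5[1] and Rh6[1]. Whole embryos were used, so no cell type can be assigned to a region.

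The files give 1 list of peaks for the series, with a start, an end and a score for each, in coordinates of FlyBase release 5. Values per library were not analysed here. No value below therefore carries a replicate error, and the read depth is unknown. Width, score and position all come from the same peak call that chose the members. They are therefore given as descriptions, without p-values, and the intervals cover the counting of peaks only. Neighbouring peaks are not independent, which makes these intervals too narrow. A gene annotation of release 5 was not used here, and coordinates stand in for gene names.

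The wide peaks were few but held much of the sequence inside peaks. Since they were picked for width, their larger share of bases and larger median width follow from the rule, and the values give only the size. Together they covered 673 kb of the 2499 kb inside listed peaks of the stretches, or 26.9% of the bases in 8.81% of the peaks. Their median width was 1843 bp (quartiles 1640 and 2237.5 bp) and the longest reached 5254 bp, while narrower peaks had a median of 419 bp (quartiles 272 and 701.5 bp). Lengths fell off quickly past the limit. There were 207 peaks of 1500 to 1999 bp, 73 of 2000 to 2499 bp, 32 of 2500 to 2999 bp and 19 of 3000 bp or more, of which 6 passed 4000 bp.

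The limit of 1500 bp separated peaks that differed little in length. The narrowest peaks inside it were 2L:8415420-8416919 at 1500 bp with a score of 33.86, 2R:11878810-11880310 at 1501 bp with 39.63 and 3L:19799249-19800749 at 1501 bp with 29.44. The widest outside it were 3R:19875696-19877191 at 1496 bp with 21.33, 2L:2878251-2879744 at 1494 bp with 27.39 and 3L:15975103-15976596 at 1494 bp with 47.55. The scores on the 2 sides of the limit overlapped.

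The score is the authors' own and is read here as −log10 of the p-value of a peak against background, since many scores of the list equal Poisson tail probabilities of whole fragment counts around a mean of 49.75. The scores of wide peaks ran from 14.07 to 210.73, with a median of 33.59 and quartiles of 25.48 and 47.2. Those of narrower peaks ran from 6.03 to 122.08, with a median of 13.26 and quartiles of 10.40 and 18.02. The ranges overlapped broadly: 1522 narrower peaks (44.4%) scored at least as high as the lowest wide peak, but 109 (3.18%) reached the median of the wide ones. Of the wide peaks, 0 of 331 scored below 13.97, the median over all peaks of the stretches, and 30 (9.06%) scored below the upper quartile, 20.18.

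**Figure D1:**
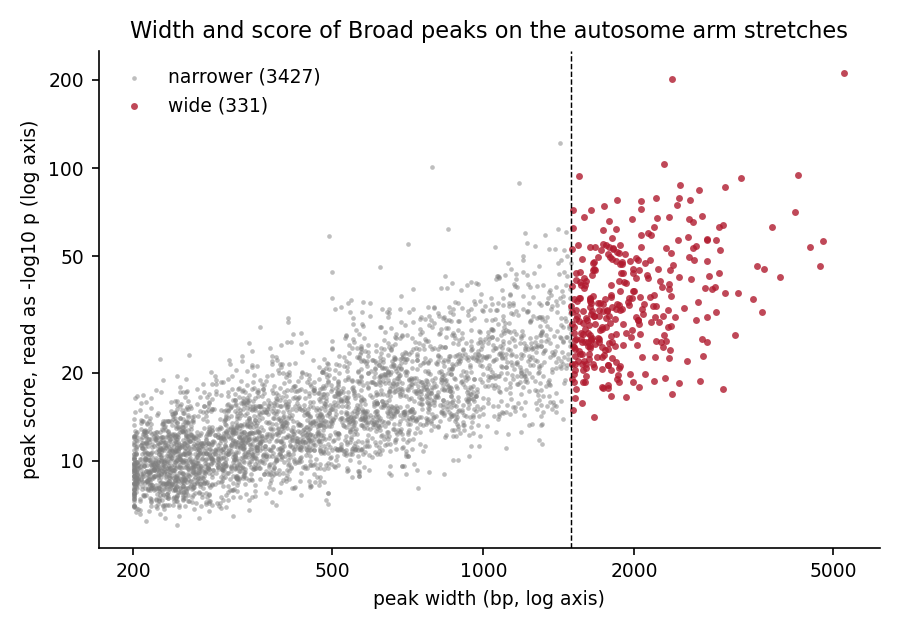
Each point is a peak of the autosome arm stretches, placed by its width in bp and by its score (both on log axes). The 331 wide peaks lie to the right of the dashed line at 1500 bp with scores from 14.07 to 210.73, and the 3427 narrower peaks to its left reach 122.08.

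Strong Broad peaks were mostly wide, but not all were. A score of 50 or more was held by 85 peaks of the stretches, of which 67 were wide (78.8%), and the wide peaks made up 7 of the 10 highest scores and 80 of the 100 highest. Among the 331 highest scores, as many as there are wide peaks, 185 (55.9%) were wide. The strongest narrower peak, 2R:14525615-14527037, scored 122.08 at 1423 bp, and 3R:14973252-14974040 scored 100.52 at 789 bp. High score in a short peak was thus rare but present.

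Longer members tended to score higher. Spearman's rho was 0.35 across the 331 wide peaks, a relation across peaks of 1 list that share their libraries and their caller, against 0.74 across the narrower ones. The members were selected on width, which limits its range, so the values of rho are not comparable. By arm it ran from 0.31 on 2L to 0.38 on 3L. The median score was 30.84 for peaks of 1500 to 1999 bp, 36.54 at 2000 to 2499 bp, 46.07 at 2500 to 2999 bp and 46.45 at 3000 bp or more. The last pair of classes, of 32 and 19 peaks, had overlapping 95% intervals of the median, 34.86 to 56.69 and 37.33 to 70.95.

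The score can be turned into a fold over the background mean of 49.75 fragments. For a peak scored against that mean this is its pileup divided by the mean. For any other peak, scored against a higher local background, it is an upper bound on the fold over the mean used for that peak. Wide peaks had a median of 3.16-fold on this scale (quartiles 2.81 and 3.66), the highest being 8.00-fold, and narrower peaks had a median of 2.21-fold (quartiles 2.05 and 2.47). A value of 3-fold or less was given to 127 of the 331 wide peaks (38.4%) and to 3245 of the 3427 narrower ones (94.7%). A value above 3-fold that is an upper bound does not place a peak above 3-fold.

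Few wide peaks were scored against the mean of the whole genome. Scores equal, at 2 decimals, to a tail probability at 49.75 were found for 25 of 331 wide peaks (7.55%, 95% Wilson interval 5.17 to 10.9%) and for 352 of 3427 narrower ones (10.3%, 9.30 to 11.3%). Means from 40 to 49, taken as a guide to coincidence, matched 1.96% of the wide peaks on average and 4.53% at most, and 2.69% and 4.41% of the narrower ones. Among wide peaks with scores of 10 to 30 the share was 3.94%, within that range, so some of the 25 may be coincidental matches. A mean of 49.751 matched as many peaks of the list and 26 of the wide ones. The 25 peaks had pileups of 117 to 398 fragments, with a median of 174, or 3.50-fold.

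The longest region was also the strongest. It lay at 3R:26075794-26081047, covered 5254 bp and scored 210.73, which matched a pileup of 398 fragments, or 8.00-fold. Only 2 other listed peaks lay within 20 kb of it, the nearer one 272 bp from its edge. With these flanking peaks the signal spanned 3R:26074619-26081894, or 7276 bp, of which 89.2% was inside peaks.

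The others among the 10 longest scored far lower. In order of width they were 2L:19573960-19578721 at 4762 bp with a score of 56.2, 3L:5823473-5828176 at 4704 bp with 46.33, 2L:6918151-6922630 at 4480 bp with 53.78 and 3R:14738475-14742725 at 4251 bp with 94.62. They were followed by 2L:2751276-2755463 at 4188 bp with 70.95, 3R:27571181-27575088 at 3908 bp with 42.42 and 3L:11808493-11812254 at 3762 bp with 62.72. The last were 2R:9109769-9113409 at 3641 bp with 45.19 and 2R:5000870-5004470 at 3601 bp with 32.33. All 10 had another listed peak less than 500 bp from an edge, at gaps from 52 to 478 bp, and 1 to 5 peaks within 5 kb. Such gaps were common in general. Over all wide peaks the nearest gap was under 100 bp for 14.5% and from 100 to 499 bp for 32.0%. Over narrower peaks these shares were 17.5 and 35.3%.

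**Figure D2:**
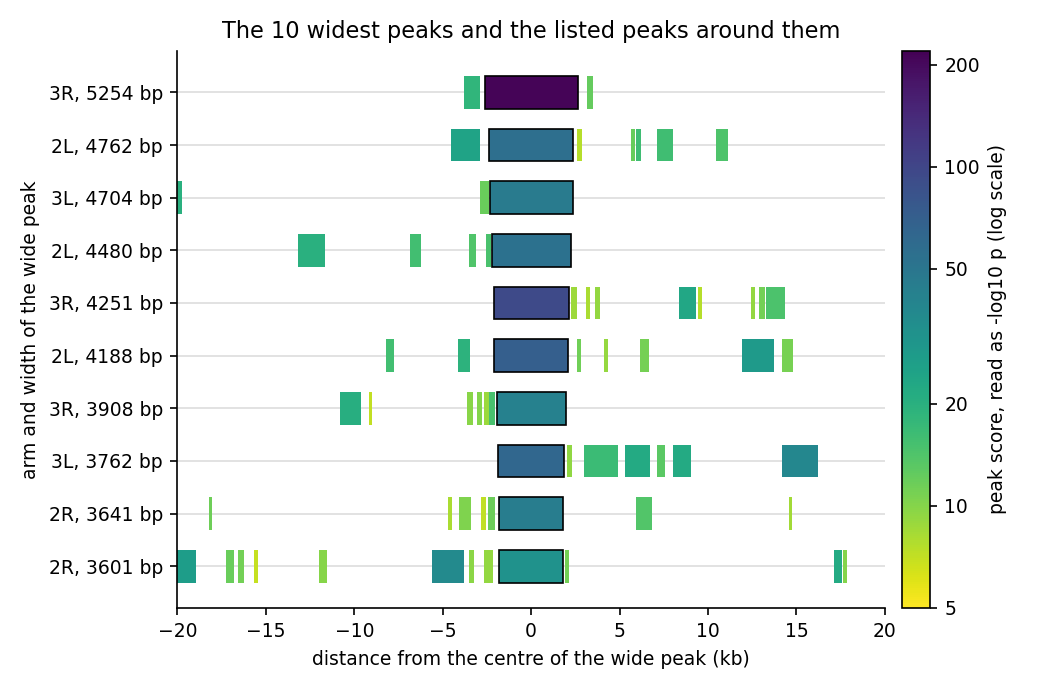
Each row is one of the 10 widest peaks (outlined), labelled with its arm and width, with every listed peak within 20 kb of its centre drawn to scale along the x axis in kb and coloured by score. The 5254 bp peak on 3R has the darkest colour at 210.73 and 2 companions, while the 3601 bp peak on 2R has 4 others within 5 kb.

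The next highest scores belonged to members of varied length. The peak 3R:10198122-10200503 scored 200.84 at 2382 bp, 3R:23262896-23265194 scored 103.29 at 2299 bp, the 4251 bp peak 3R:14738475-14742725 scored 94.62 and 2R:17210663-17212213 scored 94.28 at 1551 bp. The last, barely past the width limit, had rank 5 by score among the wide peaks. The highest member of 3L was 3L:11012607-11015872, at 92.46 and 3266 bp, and that of 2L was 2L:9966160-9968625, at 87.64 and 2466 bp.

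At the other end stood long stretches with low scores. The lowest scores were 14.07 at 3R:17860305-17861966 (1662 bp), 14.93 at 2R:10739111-10740620 (1510 bp), 15.82 at 3L:3542717-3544292 (1576 bp), 16.42 at 2R:16149693-16151216 (1524 bp) and 16.57 at 3L:11813350-11815273 (1924 bp). On the fold scale these reached 2.25, 2.31, 2.35, 2.39 and 2.39. The third matched the background mean, at 117 fragments, but a match at scores of 10 to 30 may be coincidental. It had no listed peak within 20 kb. Length did not require a high score even past 3000 bp: 2L:9494005-9497008 covered 3004 bp with a score of 17.64. Heights of summits are not given, and a low score against a higher local background does not show a low one.

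At the limit of 1500 bp wide peaks took their lowest share on 3L, with an interval that overlapped those of the other arms. They made up 106 of 1114 peaks on 3R (9.52%, 95% Wilson interval 7.93 to 11.4%), 86 of 919 on 2R (9.36%, 7.64 to 11.4%), 72 of 788 on 2L (9.14%, 7.32 to 11.4%) and 67 of 937 on 3L (7.15%, 5.67 to 8.98%). All 4 intervals overlapped, which does not settle whether the shares differed, and a difference between arms was not tested. With a limit of 1000 bp the shares were 19.42% on 2L, 19.21% on 3L and 3R and 19.15% on 2R. The arm 3L stayed lowest at 2000 bp or more, on whole arms, with joining of peaks and with the top 50% of peaks by score. Median widths were 1884 bp on 2L, 1875 bp on 2R, 1812 bp on 3R and 1806 bp on 3L, and the median scores were 35.78 on 3R, 34.13 on 2L, 32.84 on 2R and 30.93 on 3L. The intervals of these medians overlapped too.

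Along the arms the wide peaks were spread out, with few empty megabases. Bins of 1 Mb held 3.76 ± 2.06 wide peaks (SD over 88 bins), with a median of 3.5 and a range from 0 to 8. The counts of 8 were at 2R 5 to 6 Mb, 2R 9 to 10 Mb and 3R 11 to 12 Mb. The 5 bins without any were 2L 1 to 2 Mb, 2L 3 to 4 Mb, 2L 17 to 18 Mb, 2R 21 to 22 Mb and 3L 9 to 10 Mb. Of these, 2L 17 to 18 Mb held only 9 peaks of any width and 2R 21 to 22 Mb, at the end of the arm, only 2. The other 3 held 31, 34 and 45 narrower peaks, against a median of 37.5 over all bins.

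**Figure D3:**
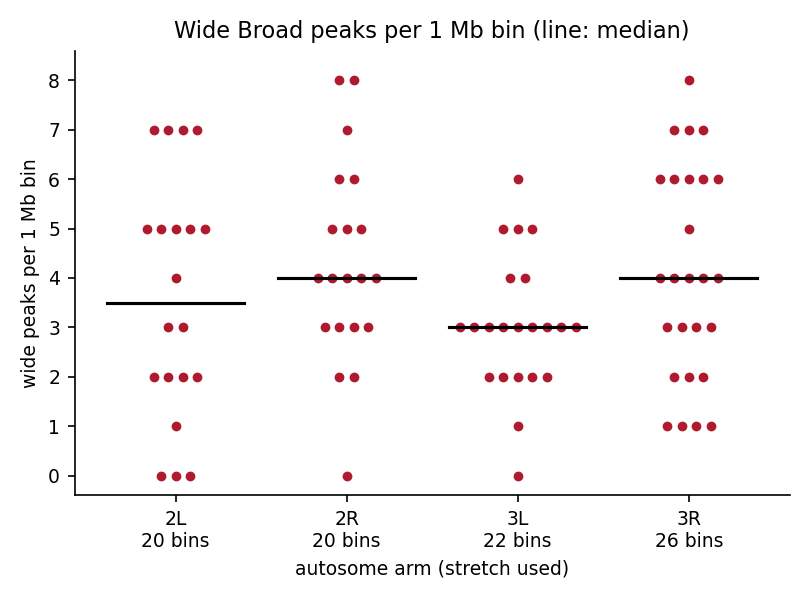
Each point is a 1 Mb bin of an arm stretch, with the number of wide peaks centred in it on the y axis and a line at the median of the arm. Medians are 3.5 on 2L, 4 on 2R and 3R and 3 on 3L, and the counts run from 0 to 8.

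The number of wide peaks in a bin followed the number of narrower ones only weakly. Across the 88 bins Spearman's rho was 0.27 and Pearson's r 0.28, a description of neighbouring bins of the same libraries. By arm, rho was 0.54 over 20 bins on 2L, 0.45 over 20 on 2R, 0.13 over 26 on 3R and 0.08 over 22 on 3L. The empty bin of 3L, with 45 narrower peaks, exceeded the median of 39.5 narrower peaks for that arm. It lay in the longest stretch without a wide peak, the 1939 kb between 3L:8713206-8714826 and 3L:10653998-10655557.

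Most wide peaks had company, as did most peaks of the stretches. Another listed peak lay within 5 kb of the edges of 239 of the 331 (72.2%, 95% Wilson interval 67.1 to 76.8%), on both sides of 74, on 1 side of 165 and on neither side of 92. Over all peaks of the stretches the share was 79.0% (2969 of 3758). Peaks lay on both sides of 22.4% of wide and 30.3% of narrower peaks, and on 1 side of 49.8 and 49.4%. Neither side had any for 27.8 and 20.3%. Of the 503 listed peaks within 5 kb of a wide one, 38 were wide themselves (7.55%, 5.55 to 10.2%), near the share of wide peaks in the stretches, 8.81%. The other 465 had a median width of 353 bp and a median score of 12.98. The 2962 narrower peaks farther away had medians of 429 bp and 13.31. Of the 298 wide peaks with any listed peak within 20 kb, 203 (68.1%) scored higher than each of those peaks. The same held for 599 of 3205 narrower peaks (18.7%); wide peaks score higher in general, and both values come from the call that chose them.

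Close neighbours were common, though more so for narrower peaks than for wide ones. The gap from a wide peak to the nearest listed peak was under 100 bp for 48, from 100 to 499 bp for 106, and from 500 to 999 bp for 16. It was from 1 to under 5 kb for 69, from 5 to under 20 kb for 59, and 20 kb or more for 33. In that order, these classes held 14.5, 32.0, 4.83, 20.8, 17.8 and 9.97% of the wide peaks. For narrower peaks the shares were 17.5, 35.3, 9.13, 17.7, 13.9 and 6.48%. The median gap was 800 bp for wide peaks (95% interval of the median 448 to 1789 bp) and 433 bp for narrower ones (395 to 469 bp). The smallest gap of a wide peak was 45 bp, where the smallest gap in the whole list was 44 bp. How the peak caller set apart or joined neighbouring stretches is not given in the sources used here, and its part in these gaps was not tested.

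**Figure D4:**
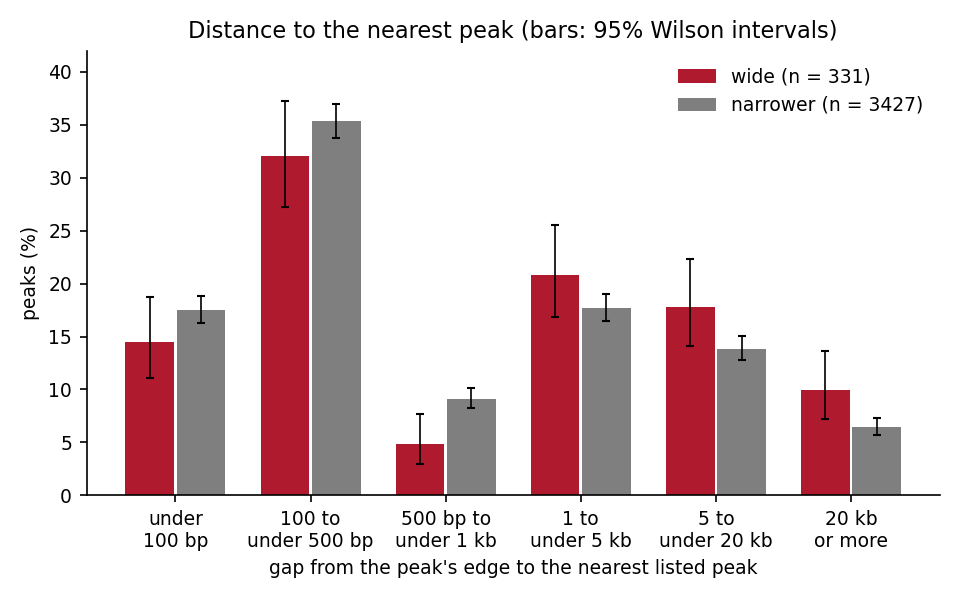
Bars give the percentage of wide (n = 331) and narrower (n = 3427) peaks by the gap from their edge to the nearest listed peak, with 95% Wilson intervals that cover counting only. The classes span unequal distances. In both sets the class from 100 to 499 bp holds most peaks, at 32.0% and 35.3%, and that from 500 to 999 bp holds 4.83% and 9.13%.

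Narrower peaks had slightly more company. A listed peak lay within 5 kb of 2730 of the 3427 (79.7%, 95% Wilson interval 78.3 to 81.0%), and the mean number there was 1.91, against 1.61 around a wide peak. The share changed gradually with width: it was 82.6% for peaks of 201 to 299 bp, 81.4% at 300 to 499 bp, 79.4% at 500 to 749 bp, 73.7% at 750 to 999 bp and 73.5% at 1000 to 1499 bp. Wide peaks of 1500 to 1999 bp had 69.6%, those of 2000 to 2499 bp 76.7%, those of 2500 to 2999 bp 75.0% and the 19 longest 78.9%. Sparse surroundings were thus not peculiar to the wide peaks. Against only the 1522 narrower peaks that scored at least 14.07, of which 76.7% had company, a comparison added after seeing the data, the difference was 4.54 percentage points in place of 7.46. It was 2.25 with peaks less than 1 kb apart joined and 2.47 with wide peaks taken from 2000 bp. In these 3 settings the 95% interval of the difference included 0, so it was not beyond counting error.

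The difference was largest from 0.5 to 1 kb outward. In the first 500 bp outward, 13.8% of the bases beside wide peaks and 16.8% beside narrower ones were inside another listed peak, and from 0.5 to 1 kb the values were 13.6 and 19.5%. From 1 to 1.5 kb they were 10.4 and 14.0%, and from 2 to 2.5 kb 9.42 and 9.38%. Narrower peaks also had more from 1.5 to 2 kb and in every step from 2.5 to 6 kb. Within that run the values were 5.78 and 8.03% from 4 to 4.5 kb and 5.22 and 7.05% from 5 to 5.5 kb. Beyond 6 kb neither set was higher throughout. Narrower peaks had more from 19.5 to 20 kb (4.15 and 4.50%). Wide peaks had more from 6.5 to 7 kb (7.47 and 6.31%), 9.5 to 10 kb (7.31 and 6.08%) and 15 to 15.5 kb (6.06 and 4.61%). The part that the joining of signal into peaks has in this was not tested.

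**Figure D5:**
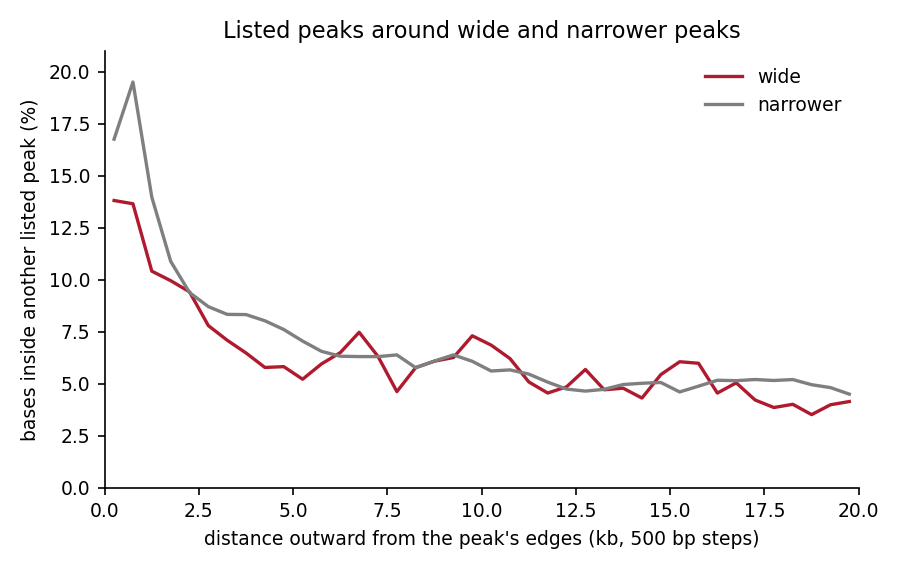
Lines give the percentage of bases inside another listed peak, in steps of 500 bp outward from both edges of wide and narrower peaks, against distance in kb. The wide line starts at 13.8%, below the narrower one at 16.8%, and both fall to under 5% by 20 kb. The narrower line is the higher one in every step from 2.5 to 6 kb, and beyond 6 kb the lines cross repeatedly.

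Joining peaks less than 1 kb apart showed how far the signal around the members extended. The 331 wide peaks then fell into 317 regions, of which 161 were still a single listed peak, and 14 held 2 or more wide ones. These regions spanned a median of 2360 bp, and 22 of them spanned 5 kb or more. The longest were 3L:11808493-11819386, with 6 peaks in 10894 bp, and 2L:18310691-18321289, with 8 peaks in 10599 bp. Joining also produced 355 regions of 1500 bp or more that held no wide peak, with a median span of 2037 bp.

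Most wide peaks had no other wide peak nearby. Chained at gaps of at most 10 kb, 263 were alone, 62 formed 31 pairs and 6 formed 2 groups of 3. One group of 3 lay at 2R:17589987-17609552, where members of 2182, 2203 and 2207 bp scored 33.72, 30.9 and 79.12. The other lay at 3L:11808493-11826582, where members of 3762, 1924 and 2001 bp scored 62.72, 16.57 and 38.15. In both groups the strongest member lay at one end.

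A few pairs were almost continuous. The closest was 3R:10195619-10198074 and 3R:10198122-10200503, parted by 47 bp, with scores of 78.81 and 200.84. Next came 2L:16349937-16351949 and 2L:16352010-16353713, parted by 60 bp, with scores of 42.22 and 26.1. The pair 3R:6087043-6089025 and 3R:6089128-6090899 was 102 bp apart and scored 28.00 and 17.76, and 2R:6693966-6696162 and 2R:6696288-6698988 were 125 bp apart and scored 22.73 and 84.49. The median gap between neighbouring wide peaks of an arm was 159 kb.

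A smaller set stood alone. With no other listed peak within 20 kb of either edge there were 33 wide peaks (9.97%) and 222 narrower ones (6.48%). The strongest of the 33 were 3L:11012607-11015872 at 92.46, whose nearest neighbour was 28.5 kb away, and 2R:3476758-3478817 at 72.23 with a neighbour 21.7 kb away. They were followed by 2R:11622437-11625443 at 63.82, 3L:20233500-20236450 at 62.9 and 3L:10942339-10944074 at 61.38, with gaps of 54.9, 52.9 and 38.8 kb. At the opposite extreme, 2L:18313574-18316610 (score 86.33) and 3R:2912638-2914365 (score 20.56) each had 7 listed peaks within 5 kb.

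Wide and narrower peaks were also compared by chains of any listed peaks with gaps of at most 5 kb. Chains of 5 or more peaks held 74 of the 331 wide peaks (22.4%, 95% Wilson interval 18.2 to 27.1%) and 900 of the 3427 narrower ones (26.3%, 24.8 to 27.8%). Those of 2 to 4 held 165 (49.8%, 44.5 to 55.2%) and 1830 (53.4%, 51.7 to 55.1%). In both classes the intervals overlapped. Outside any chain were 92 wide peaks (27.8%, 23.2 to 32.9%) and 697 narrower ones (20.3%, 19.0 to 21.7%), and these intervals did not overlap. These are the same peaks as those without a listed peak within 5 kb. They restate the difference in company given above and are no separate comparison. The interval of that difference included 0 in some alternative settings. Across the 331 wide peaks, the number of listed peaks within 5 kb had a Spearman's rho of 0.08 with length and -0.003 with score. By arm, rho with score ran from -0.22 on 3L to 0.10 on 2R. The mean number of listed peaks within 5 kb was 1.53 for the 207 peaks of 1500 to 1999 bp. It was 1.64 for the 73 of 2000 to 2499 bp and 1.53 for the 32 of 2500 to 2999 bp. For the 19 of 3000 bp or more it was 2.47, with a median of 3 (95% interval 1 to 4).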

How the data were processed

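Per the submitters' processing notes, CASAVA (versions 1.7.0.2 and 1.7.0.3), BWA and MACS2 were used with build BDGP5. Per the file headers, coordinates are FlyBase release 5. Not given in the sources used here are the mapping and calling settings and any pooling of libraries. The authors deposited a start, an end and a score per peak. The score has no stated name and was read as −log10 p, deposited by the authors: a scan of Poisson means from 10 to 120 in steps of 0.01, then 0.001, matched 1138 of 5171 scores (22.0%) at 2 decimals. Pileups may be off by 1 fragment.

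Wide peaks, 1 Mb bins by midpoint, and gaps (bases between edges, to any listed peak of the arm) were computed with Python 3.11.15, numpy 2.4.6, scipy 1.17.1, pandas 2.3.3 and matplotlib 3.10.9; the scan and the neighbour counts were tested on simulated scores and against direct counting. Intervals of shares are Wilson, those of medians are binomial. The members and the rule for naming regions (the 10 widest, each arm's widest and strongest, the 5 highest and 5 lowest scores, 3 on each side of the limit, groups of 3) were chosen with earlier results of these data known. The isolated, crowded and paired regions, the strong narrower peaks and 2L:9494005-9497008 were named after their values were seen. A score per kb, planned, is not given, since the score belongs to a whole peak. Genes and sequences were not used, because the gene table at hand is of a later release.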

Additional observations from a re-analysis of the deposited data

How the results depend on the processing

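Of 87 values recomputed under alternatives, 35 stayed within their 95% interval (for counts, within 1.5 times) and 52 moved, most by construction. Only the difference between wide and narrower peaks, given below, could change sign, and it did not. With a width of 1000 bp or more, 2000 bp or more, or joining of peaks less than 1 kb apart, the wide peaks numbered 723, 124 and 672, their share was 19.2, 3.30 and 28.4%, and their median score 27.39, 41.49 and 25.74. With only the top 50% of peaks by score, the share was 17.3%, the median gap 4853 bp and the share with company within 5 kb 51.1%; with joining, the last 2 were 5919 bp and 45.2%. The share with company was 83.7% within 10 kb, 90.0% within 20 kb, 51.4% within 1 kb and 65.6% from midpoint to midpoint, the last 2 chosen after seeing the data. The difference between wide and narrower peaks in that share, -7.46 percentage points, stayed negative in its 10 alternatives; the extremes were -11.9 from midpoint to midpoint and -2.25 with joining, and it was -2.47 at 2000 bp or more. As reported its 95% interval was -12.7 to -2.70. The interval included 0 at 2000 bp or more (-10.8 to 4.25), with the top 50% (-9.85 to 1.92) and with joining (-6.68 to 2.21). It also did so at 10 kb (-8.11 to 0.15) and against narrower peaks scored at 14.07 or more (-10.0 to 0.51). Those narrower peaks had a median score of 18.9, below the 33.59 of the wide peaks, so scores were not matched. Among scores of 10 to 30 only, 3.94% of wide peaks matched the background mean. Whole arms moved none of these results. Groups of 3 numbered 0 at gaps of 5 kb and 5 at 20 kb. No paired analysis was possible because 1 list stands for all 4 libraries, and no replicate could be left out. Overlap with a second peak set was not run.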

Other observations

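Wide peaks also occurred outside the stretches described. Of the 415 peaks in the centromere-proximal ends that were left out, 25 were 1500 bp or longer (6.02%, 95% Wilson interval 4.11 to 8.74%): 12 of 186 on 2L, 11 of 116 on 3R, 2 of 37 on 3L and 0 of 76 on 2R. The longest of them, 3R:1483962-1487023, covered 3062 bp with a score of 22.03, and 2L:20060106-20062257, just past the 20 Mb limit, scored 74.19 at 2152 bp.

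On X, 35 of 727 peaks reached 1500 bp (4.81%, 95% Wilson interval 3.48 to 6.62%), and on chromosome 4, 1 of 74 did. The longest on X was X:547969-550540 at 2572 bp with a score of 41.48, and the highest score was 67.63 at X:4099994-4101516. Of the 35, 23 (65.7%) matched the background mean of 49.75, against 25 of the 331 wide peaks of the autosome arm stretches (7.55%). The coverage of X in these libraries was not measured, so the local background and the extent of binding on X cannot be told apart. Of the 197 peaks on sequences other than the 6 arms, 0 reached 1500 bp.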
